A study of Mus musculus with 5 samples.

Results

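Fibroblasts and pericytes of the mouse kidney were studied in 5 single-cell libraries: 1 control, 2 of the acute kidney injury (AKI) phase and 2 of the chronic kidney disease (CKD) phase. A cell was taken when its barcode had at most 30% mitochondrial unique molecular identifiers (UMIs, each one counted mRNA molecule) and at least 200 genes, when Col1a1, Col1a2, Dcn and Pdgfrb together had at least 3 UMIs, and when Ptprc, Pecam1 with Kdr, and Cd3e, Cd3d and Cd3g were at 0, C1qa, C1qb and C1qc summed to at most 2, and Slc34a1 and Slc12a1 were each at most 2. This rule found 247 of 60043 kept cells. All libraries came from kidneys of male Wild-Type C57BL/6 mice of 8 to 10 weeks. Injured mice were injected with aristolochic acid I (AAI), a plant nephrotoxin that damages the proximal tubule, in doses of 3 mg/kg, 3 days apart, over 2 weeks. AKI kidneys were taken at week 2 and CKD kidneys at week 4, after 2 weeks without the toxin. The control received vehicle. Whole kidney was digested with collagenase IV and DNase I, and no sort is described, so matrix-bound cells that the enzymes did not free are not counted here.

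Kidney fibroblasts lie between the tubules and make fibrillar collagens (Col1a1, Col1a2, Col3a1) and small proteoglycans such as decorin (Dcn). Pericytes and vascular smooth muscle cells, together called mural cells, wrap the capillaries and arterioles, carry the PDGF receptor beta (Pdgfrb), and include the renin-producing cells of the afferent arteriole. Both are regarded as the main sources of matrix in renal fibrosis.

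Of the marker UMIs that chose the cells, 35 kept cells that met every other limit had exactly 3 and entered, and 72 had 2 and did not. Each library gave few of them: the control 106, the AKI libraries 30 and 34, and the CKD libraries 58 and 19. In that order a typical selected cell (the median) held 8254.5, 10574, 11535, 2653.5 and 3904 UMIs, so the CKD libraries were shallower in these cells. The control held 132 kept barcodes in common with CKD 2, and 1 selected control cell was among them. For 99 of the 132, and for that cell, the CKD 2 barcode held many times the UMIs of the control barcode. Other pairs of libraries shared 19 to 64 kept barcodes, with at most 2 such cases. The cause was not tested. In the control 38.7% of barcodes were over the mitochondrial limit, against 11.1% to 12.7% in the injured libraries.

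The fibroblast or mural list led in 157 of the 247 cells. Cells were assigned to the marker list with the most UMIs, a division made after the selected cells had been examined and given without any test. In 126 cells (51.0%, 95% exact interval 44.6% to 57.4%) the fibroblast list led (Pdgfra, Dpt, Pi16, Lum, Clec3b, Gsn and others), and in 31 (12.6%, 8.69% to 17.3%) the mural list led (Rgs5, Notch3, Cspg4, Myh11 and others). They are called fibroblast-leading and mural-leading cells from here on. A further 68 cells were led by genes of the distal tubule and collecting duct, 10 by podocyte and parietal genes and 9 by a Schwann and mesothelial list of which Krt19 gave the UMIs, and 3 had no leading list. Among the 9 Krt19-leading cells, the 4 of the control held 151 UMIs of the urothelial gene Upk3a, 80% of them in 1 cell.

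The 68 distal-leading cells were the deepest, with a median of 19100 UMIs, and held 47.2% of all UMIs of the selected cells. Dcn had at least 1 UMI in 98.5% of them, as the rule favours, but Col1a1 in 17.6%, Col1a2 in 19.1% and Pdgfrb in 10.3%, and in 48 cells Dcn was the only selection marker present. Epcam, an epithelial adhesion molecule, was found in 85.3%, against 7.94% of fibroblast-leading cells, whose median was 3953.5 UMIs. Slc26a4, which encodes the chloride and bicarbonate exchanger pendrin of one type of intercalated cell, was at 15.4 UMIs per 10000 in the control, 15.9 and 17.0 in AKI and 11 and 20.6 in CKD. Foxi1, a transcription factor of intercalated cells, was at 4.09, 2.29, 5.79, 2.79 and 4.83 UMIs per 10000. Both intercalated-cell genes were thus present in the summed UMIs of this class in every library. Such sums do not show whether the genes and Dcn lay in the same cells. Over all selected cells the highest genes of the distal list were, in order, Cdh16, Epcam, Hsd11b2, Aqp2, Umod and Calb1. Which cell types of the distal tubule and collecting duct the class held was not tested. Doublets were not removed, and their part in this class was not tested. The Dcn level of the distal-leading cells was 2.91, 4.18, 1.85, 7.88 and 3.19 UMIs per 10000. It was 0.0589, 0.0749, 0.120, 0.200 and 0.287 in T lymphocytes of the same libraries, a cell type that should lack the gene.

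**Figure D1:**
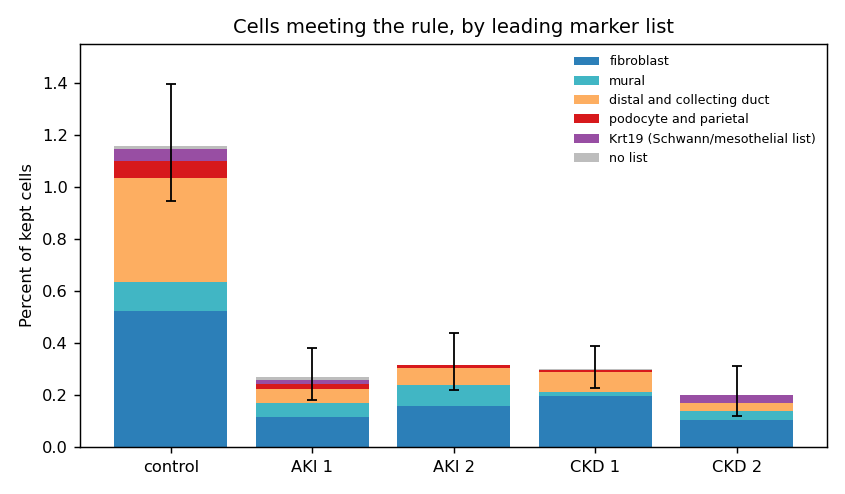
Percent of kept cells that met the rule in each library (y axis), with bar colours for the marker list that led in each cell; error bars are 95% exact binomial intervals of the total. The control bar reaches 1.16% and the 4 injured bars 0.200% to 0.313%, and the distal and collecting duct part is a large share of the control bar.

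Among kept cells the selected cells were 1.16% in the control (106 of 9168, 95% exact interval 0.948% to 1.40%). The share was 0.268% in AKI 1 (0.181% to 0.382%) and 0.313% in AKI 2 (0.217% to 0.438%). It was 0.3% in CKD 1 (0.228% to 0.388%) and 0.200% in CKD 2 (0.120% to 0.312%). All 4 injured intervals lay below that of the control, and the AKI and CKD intervals overlapped. The intervals cover counting error only, and no test was run against the single control library. CKD minus AKI, the difference of the group means came to -0.0405 percentage points, smaller in size than the SD of the CKD pair (0.0710 points), and an exact permutation test of 2 against 2 libraries cannot go below p = 0.33. T lymphocytes numbered 1273 in the control and 6573 to 9041 in the injured libraries. Of kept cells without a Ptprc UMI, a marker of all leukocytes, the share was 1.69% in the control, 0.969% and 1.26% in AKI and 0.649% and 1.29% in CKD, and the control and injured values then lay closer together. When every kept cell with at least 1000 UMIs was thinned to 1000, the shares of those cells were 0.658%, 0.178%, 0.288%, 0.337% and 0.208%. This left out 961, 1077, 796, 0 and 371 shallower kept cells. All limits of the rule were applied anew after thinning, and CKD 1 then had 65 selected cells against 58 before. The fibroblast-leading cells alone were 0.524% of kept cells in the control, 0.116% and 0.157% in AKI and 0.197% and 0.105% in CKD.

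The selected cells held only part of the collagen message of their libraries. They carried 59.7% of all Col1a1 UMIs of kept cells in the control, 24.7% and 31.3% in AKI and 31.1% and 12.2% in CKD. For Dcn the shares were 65.3%, 61.5%, 45%, 43.7% and 27.4%, and for Pdgfrb 26.7%, 19.3%, 21.4%, 8.43% and 5.71%. The rest lay in cells outside the rule.

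The levels of the 4 selection markers are given as a description, since the rule chose the cells by their UMIs and their excess over other cells follows from it. In fibroblast-leading cells Dcn was at 110, 57.8, 97.1, 136 and 224 UMIs per 10000 in the control, AKI 1, AKI 2, CKD 1 and CKD 2. Col1a1 was at 21.0, 12.8, 13.4, 11.4 and 11.1, and in T lymphocytes at 0.00636, 0.0705, 0.0640, 0.0290 and 0.0353. Col1a2, the second chain of type I collagen, was at 34.2, 16.4, 23.6, 31.0 and 24.0. Col1a1 was highest in the control, and for both chains any AKI library and any CKD library differed by less than 2-fold. Type III collagen (Col3a1) had 32.6 UMIs per 10000 in the control, 10.1 and 24.9 in AKI and 17.8 and 16.5 in CKD. No fibrillar collagen met the fold rule against the control used later, in either direction.

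**Figure D2:**
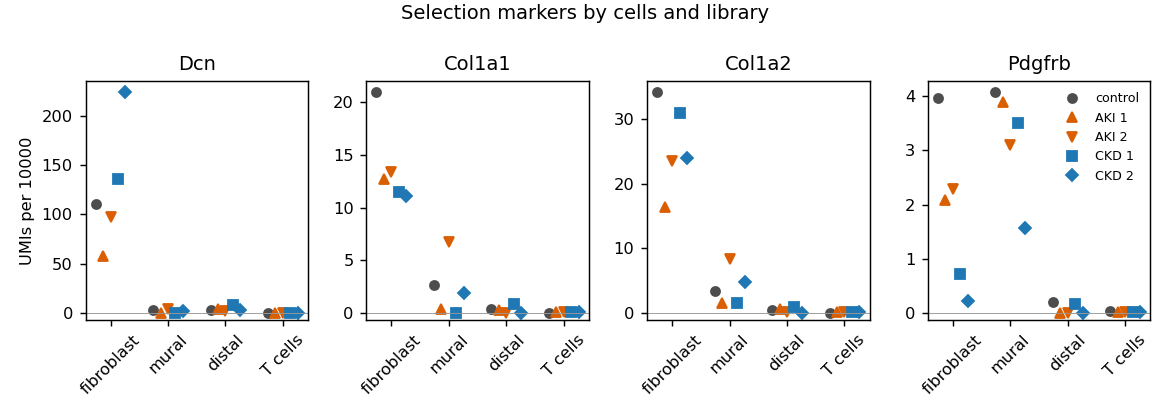
UMIs per 10000 (y axis, linear, one scale per panel) of the 4 selection markers in fibroblast-leading, mural-leading and distal-leading selected cells and in T lymphocytes; each point is 1 library, with shapes and colours for control, AKI and CKD. The rule chose the cells by these genes. Dcn, Col1a1 and Col1a2 are highest in fibroblast-leading cells in every library, while Pdgfrb is as high or higher in mural-leading cells.

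The CKD and AKI libraries were compared across all genes on UMIs summed over the selected cells of each library, to ask what differed after the toxin was stopped. The make-up of these sums differed between the groups: mural-leading cells gave 19.8% and 23% of the UMIs in AKI and 6.24% and 12.9% in CKD, and distal-leading cells 18.4% and 44.3% in AKI and 38.1% and 39.4% in CKD. The part of this shift in the differences was not tested. edgeR's quasi-likelihood test called 0 of 5504 genes (0%) at an adjusted p of 0.05, with 354 genes at an unadjusted p under 0.05 and a smallest adjusted p of 0.143. DESeq2 on the same sums called 22 (0.4%), 5 higher and 17 lower in CKD. The labels do not say whether libraries are separate mice, so p-values measure the spread between libraries only. Because no gene passed edgeR, the differences below are given as values. Several of the genes were chosen after their values had been seen.

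The genes that DESeq2 called lower in CKD included Serpine2, Gucy1a1, Bgn, Ren1 and Col12a1. Serpine2, a protease inhibitor of the serpin family, had 6.28 and 4.69 UMIs per 10000 of the selected cells in AKI and 1.09 and 0.446 in CKD, with 0.662 in the control. Its log2 fold change, CKD against AKI, was -2.72 (SE 0.47, edgeR adjusted p = 0.261, DESeq2 adjusted p = 0.00289). The 2 groups did not overlap, and the control lay among the CKD values. Of the 253 and 223 AKI UMIs of Serpine2, mural-leading cells held 149 and 147. Gucy1a1, a subunit of the nitric oxide receptor guanylate cyclase, had 2.58 and 2.35 UMIs per 10000 in AKI, 0.313 and 0.284 in CKD and 0.760 in the control (log2 fold change -2.94, SE 0.34, edgeR adjusted p = 0.143, DESeq2 adjusted p = 0.0037). Biglycan (Bgn), a small proteoglycan related to decorin, had 19.2 and 16.3 in AKI, 6.38 and 2.80 in CKD and 7.85 in the control (log2 fold change -1.86, SE 0.44, edgeR adjusted p = 0.524, DESeq2 adjusted p = 0.0464). In the other direction Rbp4, the plasma carrier of retinol, had 0.124 and 0.567 UMIs per 10000 in AKI and 3.88 and 2.88 in CKD, with 0.739 in the control (log2 fold change 3.35, SE 0.59, edgeR adjusted p = 0.271, DESeq2 adjusted p = 0.000435). All Rbp4 UMIs of the selected cells lay in fibroblast-leading cells. Of the other higher genes, Tyrobp and S100a4 had 44 and 70 UMIs in a single mural-leading cell of CKD 2.

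Within fibroblast-leading cells, both CKD libraries were at least 2-fold above both AKI libraries on CPM plus 5 (CPM, UMIs per 1000000) for 77 of 4457 genes (1.73%), and at least 2-fold below for 284 (6.37%). CKD 2 had 44148 UMIs in its 10 cells, so that 1 UMI there is 0.227 per 10000 and low genes are often at 0. Tubule genes stood on the higher side too. Klk1 had 2 and 3 UMIs in AKI and 48 and 3 in CKD, and Pck1 0 and 1 in AKI and 13 and 1 in CKD. Epcam was found in 13.2% of these cells in CKD 1 and 10.4% in the control, against 0% in AKI 1, AKI 2 and CKD 2. The part of tubule RNA in the higher genes was not tested. Among markers of fibroblast identity, 3 of 15 stood on the higher side (Dpt, Clec3b and Gsn) and 1 on the lower side (Cdh11), with a median log2 difference of 1.01 against -0.23 over all 4457 genes. That list took part in choosing these cells. Clec3b, the plasminogen-binding protein tetranectin, had 4.11 and 4.38 UMIs per 10000 in AKI and 15.2 and 20.2 in CKD, with 11.1 in the control. Leaving out the cell with the most Clec3b UMIs in each library gave 1.04 and 2.37 in AKI and 13.8 and 14.3 in CKD. Gelsolin (Gsn), which severs actin filaments, had 20.6 in each AKI library and 82.2 and 62.7 in CKD, but 20.1 in CKD 2 without its top cell. Lumican (Lum), a collagen-binding proteoglycan, had 4.48 and 5.32 in AKI and 7.86 and 19.7 in CKD. In Clec3b, Gsn and Dpt the control level lay between the AKI and the CKD levels.

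Some contractile and basement membrane genes were lower in CKD. Of 11 contractile genes past the minimum, 3 were at least 2-fold lower in both CKD libraries (Tagln, Mylk and Cald1) and 0 were higher, with a median log2 difference of -1.63. Over all 4457 genes 6.37% were lower and the median was -0.23. Tagln, an actin-binding protein of smooth muscle, had 14.7 and 5.18 UMIs per 10000 in AKI and 1.19 and 0.227 in CKD, with 15.2 in the control. Cald1 (caldesmon), which binds actin and tropomyosin, had 16.2 and 14.1 in AKI, 4.93 and 2.72 in CKD and 11.1 in the control. Summed over the 14 genes of the list the level was 51.5 in the control, 60.0 and 40.9 in AKI and 15.2 and 9.51 in CKD. Of 13 basement membrane genes, 3 were lower in CKD (Col4a2, Col15a1 and Col18a1) and 0 higher, with a median of -0.67. Col4a2, a chain of type IV collagen, had 5.89 and 7.07 in AKI, 1.59 and 1.13 in CKD and 5.78 in the control. For Tagln, Cald1 and Col4a2 both CKD libraries lay below the control and both AKI libraries. Some fibroblast-leading cells also held many UMIs of the mural list. A cell with 40727 of the 163073 UMIs in AKI 1 held 141 UMIs of the fibroblast list and 86 of the mural list. In AKI 2 cells held 24 and 22, and 10 and 9. In CKD 1 a cell held 2 and 2, and in CKD 2 a cell held 67 and 13. The part of such cells in these differences was not tested. Pdgfrb had 3.98 in the control, 2.08 and 2.29 in AKI and 0.715 and 0.227 in CKD. It is a selection marker, so its levels are a description. CKD cells were also shallower, and the part of the rule and of depth in the Pdgfrb order was not tested. With fibroblast-leading cells thinned to equal depth, Pdgfrb was found in 33.3% of them in the control. The shares were then 7.69% and 25% in AKI and 13.2% and 11.1% in CKD, so AKI 1 was the lowest, with 1 of 13 cells.

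Col12a1, a collagen that binds to the surface of type I fibrils, had its highest levels in AKI. It had 0.368 UMIs per 10000 in control fibroblast-leading cells, 5.46 and 5.65 in AKI and 0.397 and 0.453 in CKD. In AKI 1 80% of its UMIs were in 1 cell, and without the top cell of each library the AKI levels were 1.47 and 4.41. Over all selected cells it was above the control in every injured library, 11.1- and 15.8-fold in AKI and 2.29- and 2.15-fold in CKD on CPM plus 5. There its log2 fold change, CKD against AKI, was -2.60 (SE 0.35, edgeR adjusted p = 0.143, DESeq2 adjusted p = 0.0037). Tenascin C (Tnc), a glycoprotein of injured matrix, had 20 UMIs in the control, 13 and 38 in AKI and 0 in both CKD libraries, where 3 UMIs would be 0.238 and 0.680 per 10000. Cck, which encodes cholecystokinin, had 46 and 18 UMIs in AKI and 0 in the other 3 libraries. Of 28 matrix glycoprotein and proteoglycan genes, 4 were lower in both CKD libraries (Bgn, Emilin1, Tnc and Thbs1) and 1 was higher (Tgfbi), with a median of 0.36. Of 19 genes of TGF-beta and CCN signalling, 3 were lower (Tgfb1, Ltbp2 and Ccn2) and 0 higher, with a median of -0.66. For both lists the shares over all 4457 genes were 6.37% lower and 1.73% higher, with a median of -0.23.

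Secreted immune factors were mixed. Of 20 cytokine and chemokine genes, Ccl7 and Il6 were at least 2-fold higher in both CKD libraries and Cx3cl1 and Il34 lower. The shares over all 4457 genes were 1.73% higher and 6.37% lower. Cx3cl1 (fractalkine) had 2.61 UMIs per 10000 in the control, 3.56 and 3.70 in AKI and 0.159 and 0.680 in CKD. Ccl2, which attracts monocytes, had 1.18 in the control, 3.50 and 5.25 in AKI and 10.0 and 4.30 in CKD, with 84% of the CKD 2 UMIs in 1 cell. Tnfaip6, which binds hyaluronan, had 0.920, 0.736 and 1.68 in control and AKI and 5.80 and 10.9 in CKD. Sfrp4, a secreted Wnt antagonist, had 15.7, 15.4 and 6.26 in control and AKI and 34.8 and 47.8 in CKD, 17.5 in CKD 2 without its top cell.

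**Figure D3:**
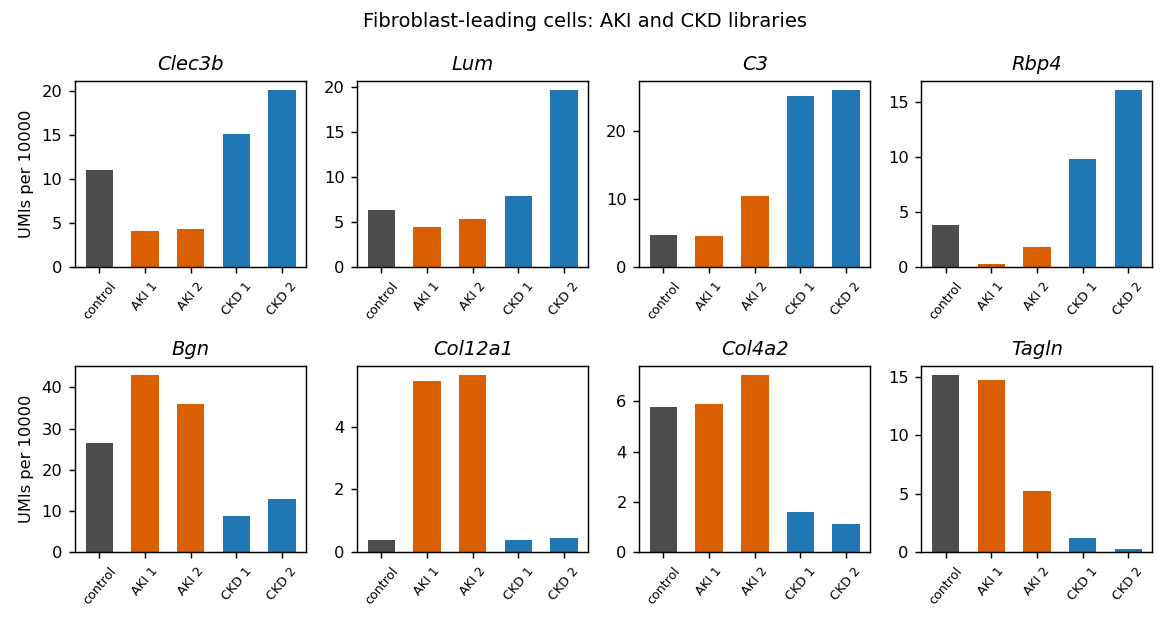
UMIs per 10000 (y axes, linear from 0, one scale per panel) in fibroblast-leading cells for 8 genes; each bar is 1 library, grey control, orange AKI and blue CKD, with no error bar. Clec3b, Lum, C3 and Rbp4 are above both AKI bars in both CKD libraries and Bgn, Col12a1, Col4a2 and Tagln below.

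The change of C3 in the selected cells was tested against that in endothelial cells. Complement component C3 is the protein on which the complement pathways converge. The change from AKI to CKD in the selected cells was set against that in 1971 endothelial cells of the same libraries, chosen by the mirrored rule, in one edgeR model with the library as a block. 2 of 9866 genes (0.0203%) passed. In fibroblast-leading cells C3 had 4.67 UMIs per 10000 in the control, 4.60 and 10.5 in AKI and 25.1 and 26.0 in CKD (127, 75, 156, 316 and 115 UMIs). A single cell held 57% of the AKI 2 UMIs and 66% of the CKD 2 UMIs. Without the top cell of each library the levels were 4.16, 3.40, 4.98, 23 and 12.6, and both CKD libraries stayed above both AKI libraries. In endothelial cells C3 was at 0.0589 in the control, 0.239 and 0.359 in AKI and 0.0717 and 0.0157 in CKD. These endothelial levels were below those of T lymphocytes in every library (0.0811, 0.413, 0.708, 0.282 and 0.245), and summed over all kept cells C3 had 3216 UMIs in the control, 8589 and 13451 in AKI and 6181 and 3656 in CKD. The difference of the 2 log2 changes was 4.50 (SE 0.45, edgeR quasi-likelihood adjusted p = 0.00398). Within the selected cells alone the C3 change was 1.67 (SE 0.49, edgeR adjusted p = 0.625), and within endothelial cells -2.69 (SE 0.46, adjusted p = 0.252). The called difference thus includes a lower endothelial level in CKD at levels under those of T lymphocytes, and no change of C3 in the selected cells was called by itself.

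The other gene was Npr3, the clearance receptor for natriuretic peptides. The selected cells held 56 Npr3 UMIs in the control, 39 and 25 in AKI and 1 and 0 in CKD. Fibroblast-leading cells held 1 of these UMIs in the control, 28 in AKI 1, all in 1 cell, 9 in AKI 2, 1 in CKD 1 and 0 in CKD 2. Podocyte-leading cells held 48 of the control UMIs and 6 and 3 in AKI, and mural-leading cells 5 and 13 in AKI. The Npr3 difference is thus one of the mixed selection. Endothelial Npr3 was at 3.37 UMIs per 10000 in the control, 0.447 and 0.328 in AKI and 0.745 and 0.462 in CKD. The difference of the changes was -5.85 (SE 0.79, edgeR adjusted p = 0.0448). It was not called with RLE size factors or without AKI 1, AKI 2 or CKD 1.

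Against the single control library no test was run, and genes were counted only when all 4 injured libraries differed from it at least 2-fold in the same direction, on CPM plus 5. In all selected cells 58 of 8839 genes (0.656%) were higher and 29 (0.328%) lower. Among the lower genes were Slc12a3, Egf, Upk3a and Atp6v1b1, genes of distal tubule and urothelium, and distal-leading cells gave 59.8% of the UMIs of the selected control cells against 18.4% to 44.3% in the injured libraries. The same count was therefore made in fibroblast-leading cells, where 38 of 4457 genes (0.853%) were higher and 97 (2.18%) lower. A gene could pass the minimum by 10 UMIs in the control alone, whose cells held 271697 UMIs against 44148 in CKD 2. Cilp, for example, had 10 UMIs in the control, 0 and 2 in AKI and 0 in both CKD libraries. This minimum favours counts of lower genes, here and in the lists below. Tubule genes remained among the lower ones in fibroblast-leading cells: Slc12a3 had 116 UMIs in the 48 control cells, 81% of them in 1 cell, and at most 1 UMI in each injured library. The summed distal list was at 11.9 UMIs per 10000 in the control, 1.29 and 0.673 in AKI and 6.91 and 0.680 in CKD. The part of such RNA in the counts was not tested.

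The lowest median fold against the control was that of Igfbp3, a binding protein of insulin-like growth factors. Fibroblast-leading cells had 815 Igfbp3 UMIs in the control, or 30.0 per 10000 (95% exact Poisson interval 28.0 to 32.1). AKI 1 had 2 UMIs (0.123, interval 0.0149 to 0.443) and AKI 2 had 1 (0.0673, 0.0017 to 0.375). CKD 1 had 43 (3.42, 2.47 to 4.60) and CKD 2 had 0, where 3 UMIs would be 0.680. Every injured library lay far below the control, with CKD 1 between. Endothelial cells did not share this order, with 15.6 in the control, 13 and 23.4 in AKI and 23.9 and 31.3 in CKD. Igf1, the ligand, had 2.39 in control fibroblast-leading cells, 0.307 and 1.08 in AKI and 0.556 and 0.453 in CKD. Of 11 genes of PDGF, FGF and IGF signalling past the minimum, 3 were lower than the control in all injured libraries (Igfbp3, Igf1 and Pdgfa) and 0 higher, with a median log2 difference of -0.90 against -0.18 over all genes. Among all 4457 genes 2.18% were lower and 0.853% higher.

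Fbln5 and Eln, both of elastic fibres, were also below the control. Fbln5 (fibulin-5), which assembles elastic fibres, had 18.4 UMIs per 10000 in the control (16.8 to 20.1), 1.72 (1.14 to 2.48) and 3.16 (2.32 to 4.21) in AKI and 0.953 (0.493 to 1.67) and 0.906 (0.247 to 2.32) in CKD. Elastin (Eln) had 4.12 (3.39 to 4.96) in the control, 0.491 and 0.471 in AKI and 0.318 and 1.59 in CKD. Emilin1, a further elastic fibre gene, was not below the control in AKI, with 2.98 in the control, 3.00 and 3.37 in AKI and 0.477 and 0.453 in CKD. Periostin (Postn), a matricellular protein, had 2.47 in the control, 0.123 and 0.741 in AKI and 0.397 and 0.906 in CKD. In the control 61% of the Postn UMIs were in 1 cell, and the control level without that cell was 1.01. Fbln5, Eln and Postn were the genes on the lower side among 28 matrix glycoprotein and proteoglycan genes, of which 0 were higher, with a median of -0.71. Across all 4457 genes 2.18% were lower and 0.853% higher, with a median of -0.18. Dpep1, a membrane dipeptidase, had 12.6 in the control, 1.59 and 1.62 in AKI and 4.45 and 9.97 in CKD, so that CKD 2 was near the control. The control is a single library, so that its preparation and its group cannot be told apart.

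Some interferon-stimulated genes were above the control. Of 17 such genes past the minimum in fibroblast-leading cells, 5 were at least 2-fold above the control in all injured libraries (Isg15, Ifit1, Ifit3, Gbp2 and Zbp1) and 0 below, while 12 did not pass, with a median of 1.05. Over all 4457 genes 0.853% were higher and the median was -0.18. Isg15, a ubiquitin-like protein induced by interferon, had 5 UMIs in the control, or 0.184 per 10000 (0.0598 to 0.429). It had 4.42 (3.45 to 5.56) and 3.77 (2.85 to 4.90) in AKI and 1.91 (1.22 to 2.84) and 1.36 (0.499 to 2.96) in CKD. Without the top cell of each library these were 0.114, 1.63, 2.20, 1.68 and 0.324, so that the CKD 2 level rested mainly on 1 cell. Ifit3, another interferon-induced protein, had 0.147 in the control, 1.53 and 1.21 in AKI and 0.397 and 1.36 in CKD, with all 6 CKD 2 UMIs in 1 cell. Isg15 was also higher in the injured libraries in other cells: T lymphocytes had 3.87 in the control and 6.70 to 8.10 in the 4 injured libraries, and endothelial cells 2.68 and 3.64 to 4.89. The part of free RNA from those cells in the fibroblast values was not tested. Ccl5, a chemokine of T lymphocytes, also met the rule with 0.0368 in the control and 0.539 to 1.91 in the injured libraries, where T lymphocytes had 31.0 to 56.2 against 28.2 in the control.

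The promoters of 3 of these genes are shown because the response is read from interferon-stimulated response elements, which have a core of GAAA, any 2 bases and GAAA again. Those of Gbp2 and Zbp1, which also passed, are not shown, so the matches below describe only the 3 genes. Each sequence is the 250 bases before the gene's start in RefSeq on GRCm38.p6, written 5′ to 3′ along the gene, with matches to that core on either strand in capitals. Isg15 (chr4:156200819-156201068, minus strand) has 3 overlapping matches that begin 78 to 66 bases before the start, Ifit1 (chr19:34640639-34640888, plus strand) has 2 that begin at 104 and 85, and Ifit3 (chr19:34583279-34583528, plus strand) has 2 at 156 and 122. Of 32851 promoter windows of this length, 978 (2.98%) hold the core. A match is a description of the sequence and not a measured site.
Isg15: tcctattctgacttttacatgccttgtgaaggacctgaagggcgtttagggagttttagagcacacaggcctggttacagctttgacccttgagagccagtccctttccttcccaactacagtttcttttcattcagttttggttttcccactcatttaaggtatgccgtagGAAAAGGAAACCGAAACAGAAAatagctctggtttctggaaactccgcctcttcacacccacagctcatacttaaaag
Ifit1: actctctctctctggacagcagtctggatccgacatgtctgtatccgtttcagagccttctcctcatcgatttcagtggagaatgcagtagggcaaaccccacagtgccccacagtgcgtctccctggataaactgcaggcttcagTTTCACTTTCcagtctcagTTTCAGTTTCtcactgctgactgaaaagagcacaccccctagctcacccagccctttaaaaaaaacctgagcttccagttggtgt
Ifit3: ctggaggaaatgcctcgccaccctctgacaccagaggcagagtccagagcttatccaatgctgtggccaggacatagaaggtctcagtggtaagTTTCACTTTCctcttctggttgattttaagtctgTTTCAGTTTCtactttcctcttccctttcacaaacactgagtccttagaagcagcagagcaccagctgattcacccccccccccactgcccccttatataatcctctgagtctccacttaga

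Serpina3n, a secreted inhibitor of serine proteases that is induced by inflammation, met the rule and was near 0 in the neighbouring cells. It had 0.589 UMIs per 10000 in the control (0.337 to 0.956), 3.07 (2.28 to 4.04) and 11.3 (9.66 to 13.2) in AKI and 4.77 (3.64 to 6.14) and 8.61 (6.09 to 11.8) in CKD. Without the top cell of each library the values were 0.379, 2.10, 8.40, 3.8 and 7.69. T lymphocytes had at most 0.0348 and endothelial cells at most 0.0867 in any library. Cdkn1a, which encodes the cell-cycle inhibitor p21, was past the rule over all selected cells but not in fibroblast-leading cells, where it had 1.03 in the control, 8.83 and 4.11 in AKI and 5.40 and 1.36 in CKD. Endothelial Cdkn1a was 2.33 in the control and 9.18 to 10.5 in the injured libraries. Plac8 had 0.442 in control fibroblast-leading cells, 2.94 and 3.64 in AKI and 1.91 and 4.53 in CKD. Of 25 immediate-early and stress genes, which dissociation of tissue can induce, 2 were higher than the control in all injured libraries (Nr4a1 and Dnajb1), against 0.853% of all 4457 genes. The summed level of the list was 293 in the control, 609 and 645 in AKI and 428 and 507 in CKD. The part of this response in the other differences was not tested.

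**Figure D4:**
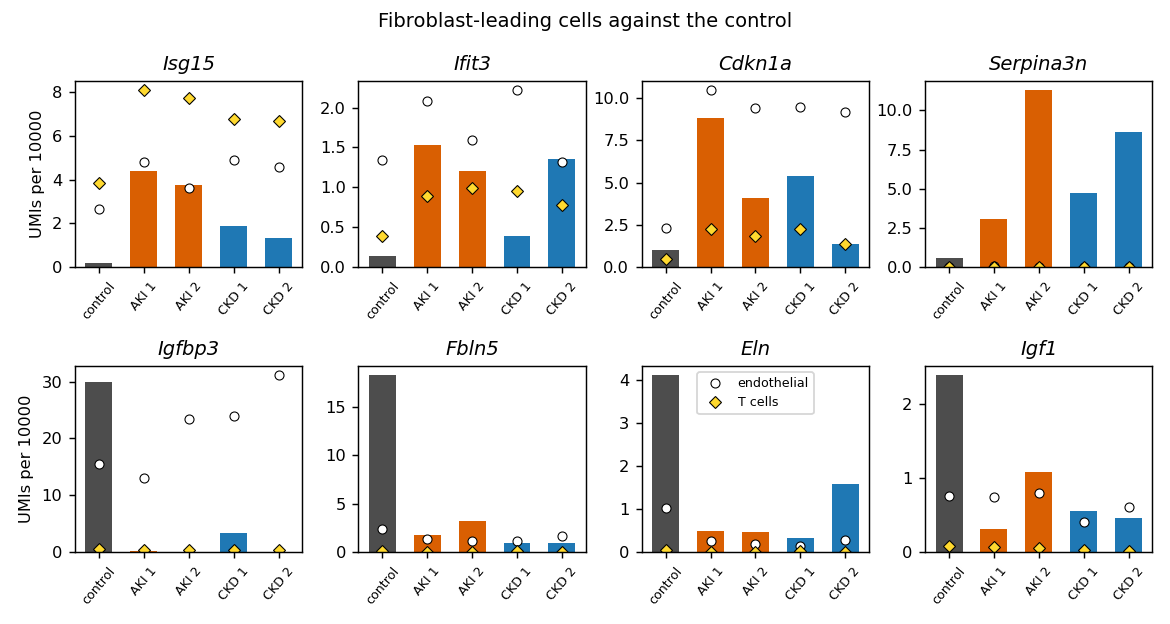
UMIs per 10000 (y axes, linear from 0, one scale per panel) in fibroblast-leading cells (bars, 1 library each, with no error bar) and in endothelial cells (white circles) and T lymphocytes (yellow diamonds) of the same libraries. Isg15 and Serpina3n bars are above the control bar in all 4 injured libraries, Igfbp3, Fbln5, Eln and Igf1 bars below it, and endothelial Igfbp3 does not follow the fibroblast bars.

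Mural-leading cells were too few for more than single cells, with 10 in the control, 6 and 9 in AKI and 3 in each CKD library. Rgs5, a regulator of G-protein signalling typical of pericytes, had 68.7 UMIs per 10000 in the control, 34.3 and 13.1 in AKI and 61.1 and 22.6 in CKD. Myh11, the smooth muscle myosin heavy chain, had 46.5, 11.3, 0.547, 27.1 and 10.7. Acta2, smooth muscle actin, had 69.5, 70.0, 14.0, 93.7 and 38.2, and 99% of the CKD 1 UMIs were in 1 cell. AKI 2 was the lowest library for all 3 genes. There 6 of the 9 mural-leading cells led the fibroblast list by at most 3 UMIs, against 1 of 10 in the control and 0 in the other libraries, and 66.7% held Dcn against 0% to 33.3% elsewhere. In that library 1 mural-leading cell held 797 UMIs of the cell-cycle list, with 91 of Mki67, a marker of proliferation, and 0 Mki67 UMIs were found in the mural-leading cells of the other 4 libraries.

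Among the selected cells renin was carried by 1 or a few cells per library. The mural-leading cell with the most Ren1 held 5 UMIs in the control, 918 and 743 in the AKI libraries and 40 and 152 in those of CKD. In AKI 1 the next cells had 190, 13 and 4 UMIs, and in the other libraries every further mural-leading cell had 0. Summed over the selected cells Ren1 was at 0.0845 UMIs per 10000 in the control, 28.0 and 15.6 in AKI and 1.28 and 6.16 in CKD, and it was the gene with the highest median fold against the control (81.3). All kept cells together held 1367 Ren1 UMIs in the control, 2293 and 1651 in AKI and 1561 and 434 in CKD. Of these the selected cells held 12 in the control, 1128 and 743 in AKI and 41 and 152 in CKD. The fold therefore describes the selected cells only, and Ren1 was not absent from the control. In the selected cells the log2 change of Ren1 from AKI to CKD was -2.49 (SE 0.71, edgeR adjusted p = 0.588, DESeq2 adjusted p = 0.0256). The sums over the selected cells rest on 2 cells in AKI 1 and on 1 cell in each other injured library.

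**Figure D5:**
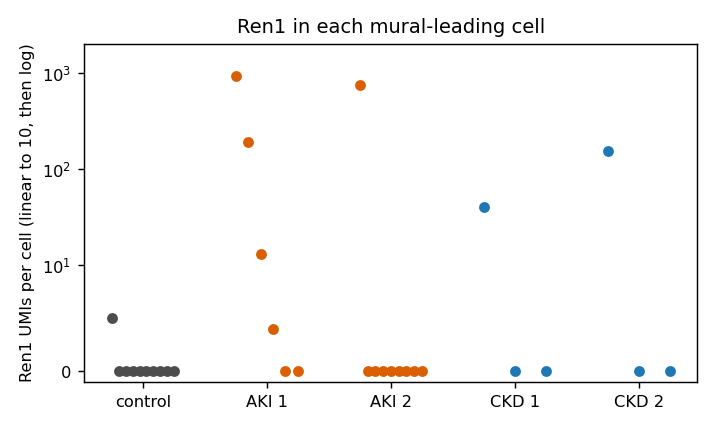
Ren1 UMIs in each mural-leading cell (points) by library; the y axis is linear to 10 and logarithmic above. The top cell has 743, 40 and 152 UMIs in AKI 2, CKD 1 and CKD 2, AKI 1 has cells of 918 and 190, and the control top cell has 5.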

How the data were processed

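Kidney suspensions were sequenced with the 10x Genomics 3′ chemistry. The authors deposited UMI counts per gene and barcode, not normalized. The submitters' processing notes name Cell Ranger 7.2.0, STAR and GRCm39, whereas the matrix headers of both injured groups carry Cell Ranger 5.0.0 and the control's gene table names mm10, so no coordinates were taken from them. From these counts the cells were selected by the rule, and UMIs were summed per library. Levels are UMIs per 10000 UMIs of the cells named. Doublets were not removed and free RNA was not subtracted. edgeR 4.0.16 (quasi-likelihood, TMM, filterByExpr, Benjamini-Hochberg) compared 2 AKI with 2 CKD libraries, and DESeq2 1.42.0 was the alternative. The standard error is the log2 fold change divided by the root of its F value. For the single control, genes needed 10 UMIs in 1 library, a mean of 10 CPM and 2-fold in all 4 injured libraries. The code was tested on simulated data, in which only well-counted genes were changed and all genes had the same dispersion. There the CKD against AKI test recovered 6.25% of 2-fold, 61.4% of 4-fold and 96.1% of 8-fold changes. The interaction test recovered 1.43%, 15.4% and 56.9%. Genes with few UMIs and sums that rest on single cells were not simulated, so recovery may be lower in the real data. A lack of calls therefore does not show a lack of differences. Shares have exact Clopper-Pearson intervals and sums exact Poisson intervals at 95%, both for counting error only.

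The members, the gene lists and the rules were chosen with earlier results of these data known, and the leading-list classes and values without a top cell after the selected cells were seen. Named genes were the 8 highest and 8 lowest against the control, up to 6 per list, genes of the interaction and selection markers. Genes outside this rule were chosen for their values. Alternatives were RLE size factors, no low-count filter, the control in the fit, a replicate block, leaving out each library, at least 6 marker UMIs, a 15% mitochondrial limit, other pseudocounts and subsets of the cells.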

Additional observations from a re-analysis of the deposited data

Results flagged for a closer look

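The change of C3 from AKI to CKD differed between the selected cells and endothelial cells by 4.50 on the log2 scale (SE 0.45, edgeR quasi-likelihood adjusted p = 0.00398), as tested by the interaction of cell type and group. Endothelial C3 was below its level in T lymphocytes in every library, and neither cell type's own change was called. The C3 difference was called under every alternative run for this comparison.

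The change of Npr3 differed by -5.85 (SE 0.79, edgeR adjusted p = 0.0448) in the same test. Over the alternatives in which it was not called, its value ranged from -9.60 to -5.59, and it rested on 39 and 25 UMIs in the AKI libraries and 1 and 0 in the CKD libraries, of which fibroblast-leading cells held 28, 9, 1 and 0.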

How the results depend on the processing

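For CKD against AKI edgeR called 0 genes, and also 0 with RLE size factors, with the control in the fit, with at least 6 marker UMIs, with the 15% mitochondrial limit and in the 201 cells with more UMIs of the fibroblast than of the mural list, or the 31 of the reverse. The 201 cells include distal-leading cells (1329503 UMIs in the control against 271697 in fibroblast-leading cells), and no test was run in fibroblast-leading cells alone. DESeq2 called 22 and edgeR without a low-count filter 177 (71 higher and 106 lower). Leaving out 1 library at a time gave 84 to 173 calls, where the lone remaining library of a group is assumed to vary like the others. With a replicate block edgeR called 0 genes. The deviations of same-numbered libraries had a correlation of 0.0444, so the numbers were not taken as pairs. The cause of these differences was not tested. The alternative without cells holding 2 UMIs of another cell type's list left 0 cells in AKI 1 and was not run for genes.

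The share difference of CKD minus AKI was -0.143 points among kept cells without Ptprc and 0.0392 after thinning. Leaving out 1 library gave -0.0907 to 0.00975 points. The count of genes past 2-fold against the control was 87, and 135 in fibroblast-leading cells (38 higher and 97 lower). It was 126 to 160 without 1 injured library, since fewer libraries then had to pass. The interaction called 1 gene with RLE size factors, 80 without a filter and 1 to 14 without 1 library. Of 90 values for named genes under an alternative, 43 stayed on their side of the threshold, 43 passed it newly, 4 lost the call (all Npr3) and 0 reversed.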
